A study of Oncorhynchus mykiss with 69 samples.

Results

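Inducible Hsp70 and its co-chaperone bag3 were followed by RNA sequencing in 3 rainbow trout cell lines exposed to methylmercury, an organic form of mercury that binds thiols, or to the antidepressant fluoxetine, a serotonin reuptake inhibitor. The members are the 2 genes whose NCBI Gene symbol is hspa1b (Gene ID 110492689) or bag3 (Gene ID 110526301), of 35945 genes listed for at least 1 line and chemical. hspa1b was listed in 5 of the 6 tables of fold changes and in 4 of the 6 tables of benchmark concentrations. bag3 was listed in 4 and in 2 of them. hspa1b under fluoxetine in the gill line and bag3 under either chemical in the gut line are therefore not analysed here.

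Hsp70 proteins bind unfolded stretches of other proteins and release them in a cycle driven by ATP. J-domain proteins deliver clients to Hsp70, and nucleotide exchange factors such as BAG3 make it let go. In mammals, hspa1b is a stress-inducible Hsp70 gene under heat shock factor 1, and BAG3 links Hsp70 and small heat shock proteins to the autophagy of damaged protein.

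Exposures lasted 24 h. The lines were RTGill-W1 from gill, RTL-W1 from liver and the line that the labels spell RTgutCC, from the intestine. Each line had 2 libraries at each of 5 methylmercury concentrations and 2 control libraries, and 1 library at each of 9 fluoxetine concentrations from 1.6 to 1000 ppb with 2 controls, named ctrl and H2O, which makes 69 libraries in all. Methylmercury is given on the scale of the authors' tables, 0.25, 2.5, 25, 125 and 250, which is 250 times the value in the sample titles, with no unit stated for either. Nothing says that the libraries of a pair came from separate cultures, so the p-values measure the spread between these libraries, which may be technical. With 1 line per tissue, line and tissue cannot be told apart.

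Reads in tabulated genes came to 7.74 to 11.5 M per methylmercury library, as 1 value per pair, and to 1.83 to 7.67 M per treated fluoxetine library or mean of its controls. At 250, the median gene stood at -0.89 in the gill line, -0.78 in the liver line and -1.01 in the gut line on the log2 scale of the authors' fold changes. Methylmercury fold changes below are relative to that median gene unless stated otherwise. Tissue markers were low in places. Hepatocyte markers summed to 40.9 CPM (reads recovered from the tables, scaled to all tabulated reads) at 250 and 165 in the controls of the liver line, in controls nearly all from the transferrin gene tf. Of the 4 listed there, 2 were called at 250, 1 of them as higher. The 4 hepatocyte markers listed in the gut line summed to 79.6 CPM at 250 and 40.2 in controls, and 3 of them were called higher at 250. The gut control sum was nearly all from fga, and the next genes, hpxa and tfa, had only 0.129 CPM each. fga was not listed in liver and tf was not listed in gut, so the liver and gut sums cannot be compared. In the gut line, the 3 intestinal epithelium markers listed summed to 2.05 CPM at 250 and 4.62 in controls. Those listed in the gill and liver lines, 5 and 4 markers, summed to 3.99 and 5.28 CPM in controls, so they did not set the gut line apart. General epithelium markers summed to 1.54, 3631 and 1.15 CPM in gill, liver and gut controls, in liver nearly all from krt18b. Gill ionocyte markers, nearly all from slc12a2, summed to 385, 492 and 239 CPM in these controls. Fibroblast and mesenchyme markers summed to 3182 and 8733 CPM at 250 and in controls of the gill line, to 25748 and 48598 in the liver line, and to 6468 and 4231 in the gut line. Of 4 such markers listed per line, 2 were lower in the gill line and 4 were higher in the gut line at 250. The genes listed differed between lines, so these sums and calls cannot be compared across them. In controls, the liver sum was mostly col1a2 and col1a1b, which were not listed in gut. The gut sum was led by col1a1a, fn1a and col1a1, which were not listed in liver. Beside these marker counts, 17%, 15.7% and 21.9% of all genes were called higher at 250 in gill, liver and gut. The shares called lower were 19.6%, 13.3% and 25.9%. The part of the markers in the results below was not tested.

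Methylmercury raised hspa1b in all 3 lines and bag3 in both lines where it was measured. Each gene passed the test at 125 and at 250 and at none of the 3 lower concentrations, by a moderated test of the fold change adjusted over all genes, with a threshold of 0.05. hspa1b stood at 101 to 2717 reads per library at 250, against 0.618 to 13.5 in controls. bag3 stood at 2933 and 15017 reads at 250, against 101 and 339 in controls.

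In the gut line, hspa1b had 9.21 reads per library in controls and 6.93, 12.9, 32.9, 189 and 2717 reads at 0.25, 2.5, 25, 125 and 250. Each of these is the mean of a pair of libraries on the log scale, since values of the single libraries could not be recovered. The mean at 0.25 lay below the control mean, the means from 2.5 upward lay above it, and each of those was higher than the one before. The fold change was 1.90 ± 0.46 (SE, n = 2 per group) on the log2 scale at 25, where the adjusted p of 0.118 missed the threshold. It was 4.58 ± 0.46 at 125 and 9.31 ± 0.46 at 250, with adjusted p of 0.000591 and 5.79e-06. At 250, hspa1b ranked 10 from the top among the 21859 genes of the gut table.

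In the liver line, hspa1b had 13.5 reads per library in controls and 11.2, 18.0, 25.9, 162 and 2018 reads from the lowest to the highest concentration. The fold change was 0.74 ± 0.35 at 25 (adjusted p = 0.793), 3.92 ± 0.35 at 125 (adjusted p = 0.00143) and 7.88 ± 0.35 at 250 (adjusted p = 1.92e-05; SE, n = 2 per group). Most of the difference lay in the last 2 steps. The step between 25 and 125 was 3.19 ± 0.35 and the step between 125 and 250 was 3.95 ± 0.35, with adjusted p of 0.00690 and 0.00372. These tests of neighbouring concentrations were chosen after the values were seen.

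In the gill line, hspa1b was nearly undetected without a high concentration of methylmercury. With reads taken as whole numbers, the pair means put the control libraries at 0 and 2 reads. Those at 0.25 likewise held 0 and 2, and both at 2.5 held 0. The pair at 25 held either 1 and 1 or 0 and 4 reads, which the mean does not tell apart. The means were 20.5 reads at 125 and 101 reads at 250. A count of 0 allows up to 3 reads per library, so no difference among control, 0.25, 2.5 and 25 was detectable at this depth. The fold change was 4.76 ± 0.91 at 125 and 7.44 ± 0.91 at 250 (SE, n = 2 per group), with adjusted p of 0.0116 and 0.000663. As counts, 202 reads at 250, taken as 2 times the log-scale mean of the pair, against 2 summed over the controls gave a ratio of 87.6 after scaling to tabulated depth, with an exact 95% interval of 23.9 to 729. The same ratio at 125 was 19.4, with an interval of 5.05 to 166. Both intervals cover counting error only and rest on control reads taken as whole numbers.

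**Figure D1:**
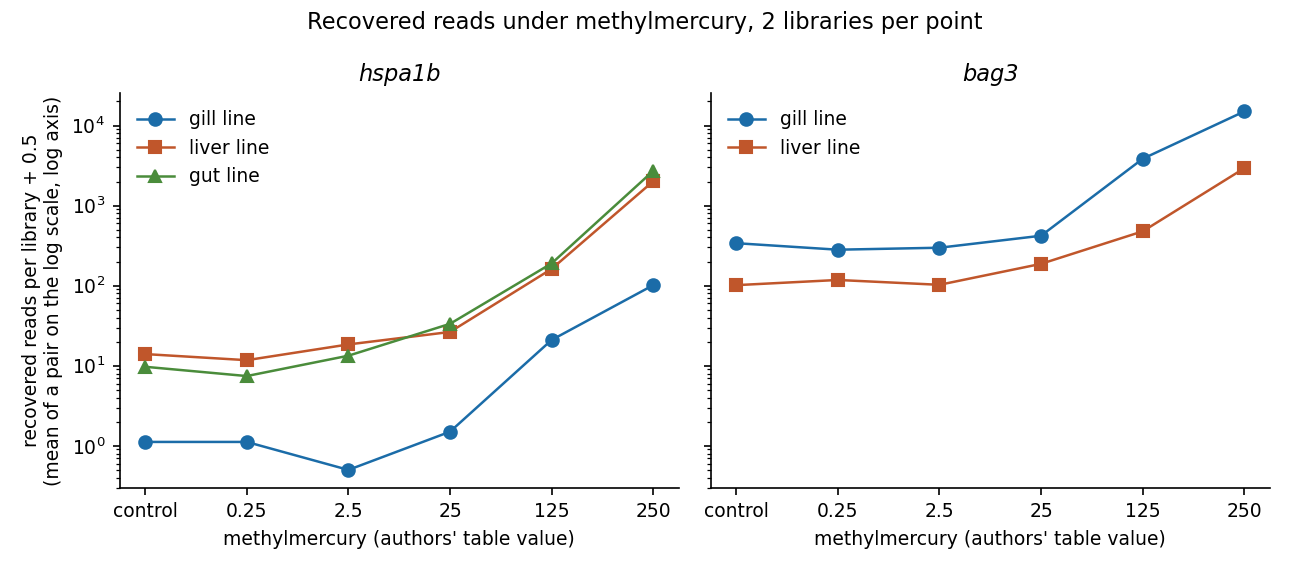
Recovered reads per library plus 0.5, on a log axis, of hspa1b (left) and bag3 (right) in control and at 5 methylmercury concentrations, given on the authors' table scale. Each point is the mean of 2 libraries on the log scale. hspa1b climbs to 101, 2018 and 2717 reads in the gill, liver and gut lines at 250, and bag3 to 15017 and 2933 in the gill and liver lines.

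bag3 had far more reads to rest on. In the gill line it had 339 reads per library in controls and 281, 297, 420, 3847 and 15017 reads from the lowest to the highest concentration. Scaled to depth, these were 34.0 CPM in controls and 30.9, 33.8, 43.5, 365 and 1305 CPM, so the last 3 concentrations stood above the control. At 25 the fold change was 0.47 ± 0.17, with an unadjusted p of 0.0275 and an adjusted p of 0.598 by the moderated test. It was 4.03 ± 0.17 at 125 (adjusted p = 1.91e-05) and 6.40 ± 0.17 at 250 (adjusted p = 1.39e-06; SE, n = 2 per group).

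In the liver line, bag3 had 101 reads per library in controls and 117, 102, 187, 477 and 2933 reads from the lowest to the highest concentration. Its fold change was 0.70 ± 0.47 at 25 (adjusted p = 0.856), 2.62 ± 0.47 at 125 (adjusted p = 0.0164) and 5.56 ± 0.47 at 250 (adjusted p = 0.000235; SE, n = 2 per group). The step between 125 and 250 was 2.93 ± 0.47 (adjusted p = 0.0194), and that between 25 and 125, 1.92 ± 0.47, missed the threshold (adjusted p = 0.0923). In the gill line both of these steps passed, the later one at 2.37 and the one between 25 and 125 at 3.57 ± 0.17 (adjusted p = 0.00115 and 9.36e-05). For hspa1b in gill, the step between 25 and 125 passed by the moderated test, at 4.18 ± 0.91 (adjusted p = 0.0264). Its step between 125 and 250 there, 2.68 ± 0.91, missed the threshold (adjusted p = 0.0989). In gut, the hspa1b steps were 2.68 and 4.72 ± 0.46 (adjusted p = 0.0132 and 0.000468). All of these step tests were likewise chosen after the values were seen.

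**Figure D2:**
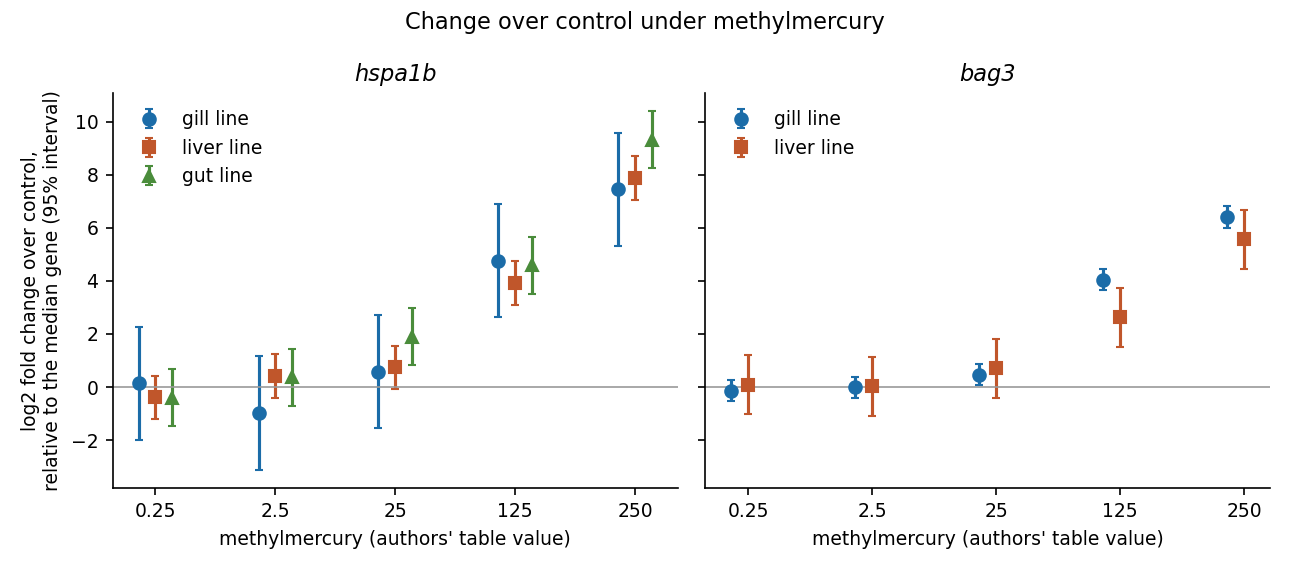
Log2 fold change over control, relative to the median gene, of hspa1b (left) and bag3 (right) at each methylmercury concentration on the authors' table scale, with 95% intervals from the moderated variance (2 libraries per concentration). Intervals at 125 and 250 lie above 0 in every line. The widest are those of hspa1b in the gill line, 5.30 to 9.58 at 250.

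Rises were common at the high concentrations, and the members' calls are read against that. At 125, 10.2% of genes in the gill line, 8.42% in the liver line and 8.86% in the gut line passed the same test as higher. At 250 these shares were 17% in gill, 15.7% in liver and 21.9% in gut. No member passed at the lower concentrations, where few genes did. The shares of genes called higher were 0.323%, 0.0517% and 0.791% for the gill, liver and gut lines when the concentration was 25. They were 0.0177%, 0.0215% and 0.0274% at 2.5 and 0.0133%, 0.00862% and 0.0229% at 0.25. The sizes of the changes set both genes near the top of the tables. At 250, hspa1b ranked 48 from the top in the gill line and 22 in the liver line, and bag3 ranked 100 and 103 there. In the authors' deposited table for each line, the F-test over all concentrations also passed for hspa1b (adjusted p = 0.00126 in gill, 0.000153 in liver and 2.96e-05 in gut) and for bag3 (adjusted p = 1.09e-05 in gill and 0.00144 in liver), beside 56.8%, 45.8% and 63.4% of all genes in gill, liver and gut. Under Holm's adjustment, adjusted p was 1 for hspa1b at both high concentrations in the gill line, 0.165 and 0.395 for hspa1b at 125 in the liver and gut lines, and 1 and 0.125 for bag3 at 125 and 250 in the liver line. With 5 reads added in place of 0.5, the fold change of hspa1b in the gill line was 2.64 at 125 and 4.98 at 250.

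Whether the lines differed in the size of the change was tested at 250. The hspa1b fold change was higher by 1.43 ± 0.57 in the gut line than in the liver line (SE, unadjusted p = 0.0267, adjusted p = 0.0990 by the moderated test), beside 19.3% of genes that passed in this comparison. Its difference was 1.86 ± 1.02 between gut and gill (adjusted p = 0.245) and -0.44 ± 0.97 between gill and liver (adjusted p = 0.820), where 17.5% and 11.6% of genes passed. For bag3 the gill line exceeded the liver line by 0.85 ± 0.50 (adjusted p = 0.321), with a 95% interval of -0.29 to 1.98. None of these 4 differences passed, and the intervals still allowed gaps of several log2 units for hspa1b in the gill line, -0.39 to 4.11 between gut and gill. At 125, bag3 was 1.41 ± 0.50 higher in gill than in liver, with an unadjusted p of 0.0205 and an adjusted p of 0.202 by the moderated test.

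Levels across lines can only be set side by side as CPM, since the tables were normalised separately, and they were not tested. hspa1b had 8.78, 192 and 330 CPM at 250 in the gill, liver and gut lines, against 0.0619, 1.45 and 1.19 in their controls. The gill line was lowest at both ends. The liver and gut controls differed by less than the residual SD of hspa1b in either line, 0.35 and 0.46 on the log2 scale. bag3 had 1305 CPM at 250 in the gill line and 279.5 in the liver line, against 34.0 and 10.8 in their controls. Gill thus had the lower level of hspa1b and the higher level of bag3 at both ends of the series. Other genes of the Hsp70 family differed in their order, in reads not scaled to depth. hsp70a, another trout Hsp70 gene, had the most reads in gill. It had 5389 reads in control and 153265 at 250 in gill, 587 and 43160 in liver, and 1771 and 43070 in gut. hsp70b had 829 reads in control and 70572 at 250 in gill, and 1485 and 32582 in gut. hspa12b was lower in gill at both ends, with 21.0 and 3.89 reads there and 2971 and 376 in liver. Reads may be split between hspa1b, hsp70a and hsp70b, as described below.

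Within a line, the fold changes of the 2 genes can be compared because both are relative to the same median gene. hspa1b and bag3 had fold changes of 7.44 and 6.40 in the gill line and of 7.88 and 5.56 in the liver line at 250. The differences, 1.04 and 2.32, have SEs of 0.92 and 0.59 if the errors of the 2 genes are independent, which was not tested. At 25 the differences were 0.11 in gill and 0.03 in liver. The gill comparison depends on the count added before taking logs, since hspa1b was nearly undetected in gill controls. With 5 reads added, hspa1b and bag3 stood at 4.98 and 6.19 in gill at 250, so their order was reversed. In liver they stood at 7.31 and 5.33, in the same order as before. Across the 10 points of both lines, Pearson's r between the genes was 0.98, a description over points that share control libraries.

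The authors also fitted a curve to each gene and took its benchmark, the concentration where the curve has moved by the residual SD of the fit. In the gill line, the authors' deposited table gives hspa1b a benchmark of 21.2 (bounds 8.84 to 34.1). In the liver line the authors' deposited table gives 13.0 (12.2 to 14.0), and in the gut line 6.12 (2.84 to 10.4). For bag3 the authors' deposited table gives 12.04 (8.01 to 15.5) in gill and 26.1 (12.3 to 40.3) in liver. The order of the genes thus differed between the lines: the bag3 value was the lower one in gill and the hspa1b value the lower one in liver. The bounds of the 2 genes overlapped in both lines. The response that counts depends on the scatter, and in the authors' deposited table it was 0.92 on the log2 scale for hspa1b and 0.15 for bag3 in the gill line. Neither gene led the tables by this measure. Genes with a passing curve that were higher at the highest concentration by the deposited fold change, not relative to the median gene, were ranked from the lowest benchmark. Among them, hspa1b was number 546 of 978 in the gill line. In the liver line it was number 185 of 684, and in the gut line number 129 of 989. bag3 was number 374 of 978 in gill and 315 of 684 in liver. The median benchmark of those genes was 17.8 in the gill line, 30.1 in the liver line and 40.4 in the gut line.

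**Figure D3:**
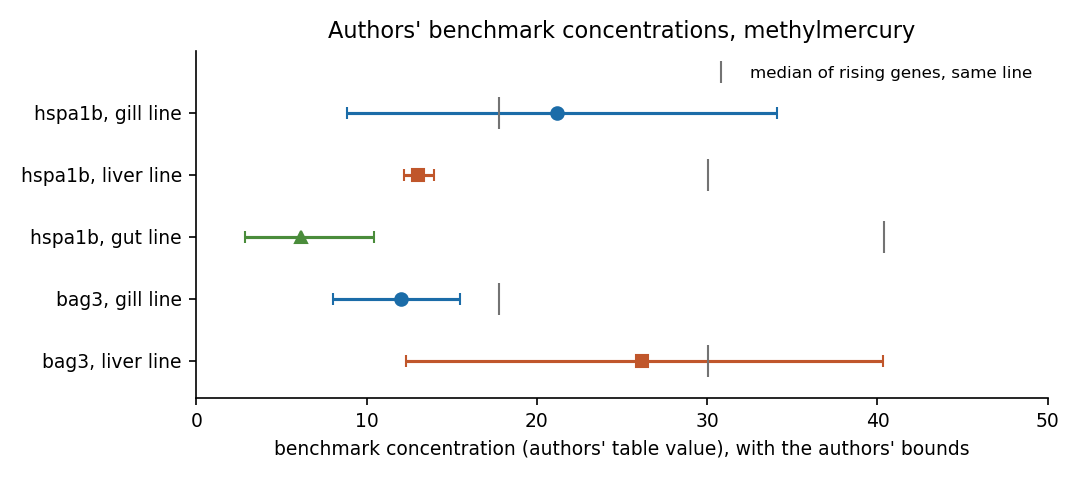
Benchmark concentrations of hspa1b and bag3 under methylmercury with the authors' lower and upper bounds, on the authors' table scale. Grey ticks mark the median of the genes with a passing curve that were higher at the highest concentration by the deposited fold change in the same line. The hspa1b interval in gut, 2.84 to 10.4, lies below that in liver, 12.2 to 14.0.

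Other genes of the Hsp70 cycle were taken from lists that are matched by symbol, so trout genes with only a locus number belong to none. In the list of Hsp70 proteins and nucleotide exchange factors, leaving out hspa1b and bag3, 4 of 8 measured genes were higher and 2 lower at 250 in the gill line, 4 of 5 higher and 1 lower in the liver line, and 3 of 6 higher and 2 lower in the gut line. The median fold change of these genes was 1.26, 1.42 and 0.23 in gill, liver and gut, beside 0 for all genes by construction. Of all genes, the higher shares at 250 are given above, and 19.6%, 13.3% and 25.9% were lower in gill, liver and gut. Of the list members called at 250, bag2, dnajc3b, hspb7 and map1lc3b, all in gut, were higher relative to the median gene and lower as deposited; bag2, dnajc3b and map1lc3b are named after their values were seen. hsp70a, another trout Hsp70 gene, rose by 5.77 ± 0.18, 6.91 ± 0.63 and 5.78 ± 0.17 at 250 in gill, liver and gut. hsp70b rose by 7.35 ± 0.22 in gill and 5.63 ± 0.18 in gut. In reads, hsp70a had 153265 at 250 and 5389 in control in the gill line, 43160 and 587 in the liver line, and 43070 and 1771 in the gut line. Near-identical Hsp70 genes can share reads, and the quantification could have split them between hspa1b, hsp70a and hsp70b, so the share of each gene is uncertain.

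The constitutive Hsp70 gene hspa8b had smaller rises, 1.73 ± 0.09 in gill and 1.91 ± 0.16 in liver. hspa12b, a distant relative of Hsp70, was lower by both scalings, at -1.36 ± 0.33 in gill and -2.27 ± 0.31 in liver. Among the BAG family, named here after their values were seen, bag2 had a fold change of 3.07 ± 0.14 in gill (adjusted p = 6.84e-06). In gut, bag2 was 0.43 ± 0.14 relative to the median gene (adjusted p = 0.0386) and -0.58 as deposited, so its direction there depends on the scaling. bag1 fell relative to the median gene in both lines measured, by 0.81 in gill and by 1.09 in gut. hsp70a was the gene of this list that passed earliest: in gut it was 1.06 ± 0.17 higher already at 25 (adjusted p = 0.0463), and its adjusted p at 25 was 0.116 in gill and 0.855 in liver.

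J-domain proteins moved in both directions, as all genes did. At 250, 3 of 10 measured genes were higher and 2 lower in gill, 4 of 13 higher and 3 lower in liver, and 1 of 7 higher and 3 lower in gut. Their medians were 0.86, 0.18 and -0.34. Of all genes, 17%, 15.7% and 21.9% were higher and 19.6%, 13.3% and 25.9% lower in gill, liver and gut. The same shares stand beside the counts of the lists that follow. The higher J-domain gene in gut was dnajc3b, at 0.21 relative to the median gene and -0.81 as deposited. dnajb1b, of the Hsp40 type that serves inducible Hsp70 in mammals, rose by 5.92 ± 0.16 in gill and 6.12 ± 0.50 in liver. Its reads were 18592 at 250 and 587 in control in gill, and 12533 and 294 in liver. dnajc15, of the mitochondrial import machinery in mammals, rose by 2.16 ± 0.10 in gill and 2.06 ± 0.23 in liver. dnajc10, a J-domain protein of the endoplasmic reticulum, was lower in all 3 lines, at -0.91, -0.49 and -1.71 in gill, liver and gut. dnajc12 was lower in all 3 as well, at -0.69, -0.80 and -0.86.

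Genes that work with BAG3 in selective autophagy formed a list of which few were measured. At 250, 3 of 3 were higher in gill, 3 of 6 higher and 1 lower in liver, and 2 of 4 higher and 1 lower in gut, with medians of 2.48, 1.15 and 0.97. One of the higher ones in gut, map1lc3b, had a fold change of 0.58 against the median gene and of -0.43 as deposited. One of those in gill, hspb6, missed the threshold in the authors' F-test over all concentrations (adjusted p = 0.224). hspa8 and hspa8b stand in this list and in that of Hsp70 proteins. sqstm1, the autophagy receptor p62, rose by 5.95 ± 0.12 in gill, 4.15 ± 0.21 in liver and 4.03 ± 0.12 in gut. Its reads were 68054 at 250 and 2105 in control in gill, 38802 and 3555 in liver, and 8526 and 1183 in gut. hdac6, a deacetylase that moves misfolded protein to aggresomes in mammals, was lower at -0.65 ± 0.12 in liver and -1.23 ± 0.15 in gut.

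In the list of Hsp90 and its helpers, 1 of 4 genes was higher and 1 lower in gill, 3 of 6 higher and 0 lower in liver, and 0 of 3 higher and 2 lower in gut at 250, with medians of -0.134, 0.804 and -0.415. ahsa1a, the activator of Hsp90's ATPase, rose by 2.22 ± 0.10 in gill and 2.16 ± 0.21 in liver. hsp90ab1 and hsp90bb, listed in liver, rose by 1.75 ± 0.13 and 1.52 ± 0.17. fkbp5, an immunophilin of Hsp90 complexes, was lower at -0.96 ± 0.31 in gill and -1.40 ± 0.48 in gut, and stood at -0.37 ± 0.25 in liver (adjusted p = 0.309).

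Few small heat shock proteins, chaperonins and heat shock regulators were measured. Of the small heat shock proteins, 1 of 4 was higher in the gill line, 0 of 3 in the liver line and 1 of 3 in the gut line, and none was lower in any line; their medians were 1.37, 0.89 and 0.61. hspb6 passed in gill, at 2.48 ± 0.49, with 15.4 reads at 250 and 4.95 in control. In the F-test over all concentrations in the authors' deposited table, hspb6 missed the threshold in gill (adjusted p = 0.224). hspb7 passed in gut, at 0.61 ± 0.14 relative to the median gene and -0.40 as deposited. Of the chaperonins and the collagen chaperone, 0 of 1 was higher and 1 lower in gill, and 2 of 3 higher and 1 lower in liver. The chaperonin genes cct8 and cct7 rose in liver by 1.43 ± 0.19 and 1.37 ± 0.18, and the collagen chaperone serpinh1a was lower at -0.54 ± 0.11 in gill and -0.63 ± 0.17 in liver. Of the regulators of the heat shock response, 1, 2 and 3 genes were measured in gill, liver and gut, and 0 passed relative to the median gene at 250. hsf1, which drives the heat shock response, stood at 0.12 ± 0.13 in liver and 0.075 ± 0.095 in gut (adjusted p = 0.550 for both). As deposited, hsf1 stood at -0.66 and -0.94 there. In the F-test over all concentrations in the authors' deposited tables, 0, 2 and 3 of the regulators passed in gill, liver and gut. That test passed 56.8%, 45.8% and 63.4% of all genes in these lines. With fold changes relative to the median gene, 0 regulators passed the F-test in any line.

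**Figure D4:**
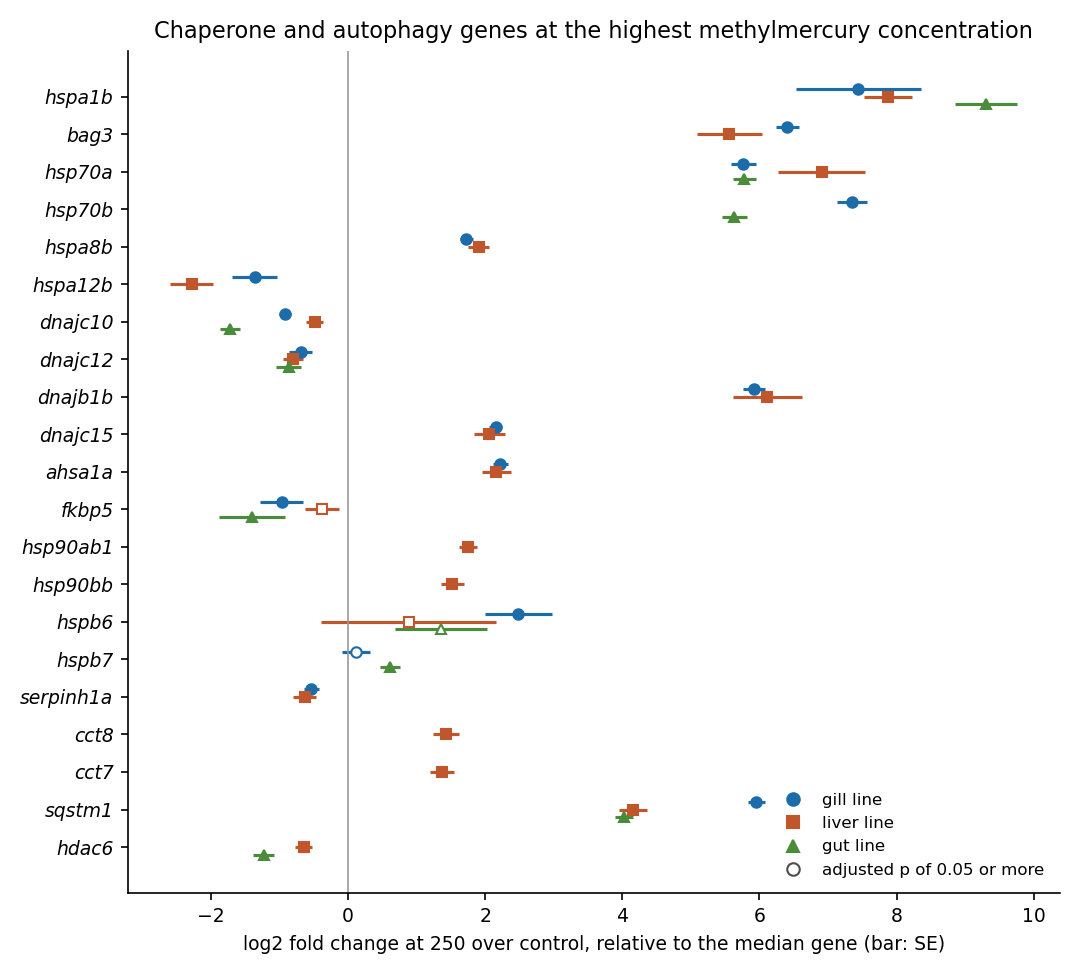
Log2 fold change over control at methylmercury 250, relative to the median gene, of hspa1b, bag3 and up to 4 genes from each list, chosen by calls and size of change, in each line where they are listed; bars are SEs, filled symbols have an adjusted p under 0.05 and open ones do not. hspa1b, bag3, hsp70a, hsp70b, dnajb1b and sqstm1 lie between 4.03 and 9.31, and the other genes plotted between -2.27 and 2.48.

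Genes whose pattern was most like that of the members were looked for among those with a symbol in every line compared, 3005 genes over 15 points for hspa1b and 3760 genes over 10 points for bag3. Nearest to hspa1b by the size of its fold changes were keap1a, which encodes the adaptor that marks Nrf2 for degradation in mammals, zanl, hsp70a, si:dkeyp-73b11.8 and lep, the leptin gene. Their root mean square distances were 1.23, 1.27, 1.27, 1.38 and 1.43 on the log2 scale. The fold change of keap1a at 250 was 5.03 ± 0.18 in the gill line, 6.47 ± 0.20 in the liver line and 6.54 ± 0.13 in the gut line. By correlation, which ignores size, cep85l (r = 0.9936), the proteasome subunit psmd1, apobec2a, tbc1d2 and bcl6aa (r = 0.9852) came first, and their fold changes at 250 were from 1.42 to 3.39.

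Nearest to bag3 were zfand2a (distance 0.23), which encodes a proteasome-associated protein induced by arsenite in mammals, dnajb1b (0.30), si:ch211-180f4.1 (0.55), sqstm1 (0.56) and zanl (0.64). zfand2a stood at 6.57 ± 0.12 in gill and 5.55 ± 0.30 in liver at 250, where bag3 stood at 6.40 and 5.56. By correlation, tut7 (r = 0.9982), the ubiquitin gene ubb, them4, dnaja and gmip (r = 0.9965) came first. hspa1b ranked 52 in correlation with bag3 and hsp70a ranked 81. These measures rest on points that share control libraries within a line and are given as descriptions.

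The genes that flank the members, 3 on each side in RefSeq's trout annotation and chosen after the values were seen, had smaller changes. Around hspa1b, 1 of 3 measured flanking genes was higher at 250 in the gill line, 0 of 3 in the liver line and 1 of 5 in the gut line, and 1, 0 and 1 of them were lower, with fold changes from -0.65 to 2.54 against 7.44 to 9.31 for hspa1b. The nearest called one, kcnc4 next to hspa1b, stood at 2.43 ± 0.67 in gill. Around bag3, 0 of 3, 0 of 1 and 0 of 2 were higher in gill, liver and gut, and 1, 0 and 2 of them were lower. bag3 itself was not listed in gut, so its flanking genes have no bag3 value to compare with there. Of all genes, 17%, 15.7% and 21.9% were higher and 19.6%, 13.3% and 25.9% lower at 250 in gill, liver and gut.

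Fluoxetine gave no call for either gene. In the authors' deposited tables, 0% of genes in any line had an adjusted p under 0.05 in the F-test over concentrations, and 11.5%, 10.4% and 10.1% had an unadjusted p under 0.05 in gill, liver and gut. With 1 library per concentration the spread rests on the 2 controls, ctrl and H2O, and on the variance shared across genes. Any difference between these kinds of control is part of that spread, and it was not tested. A trend was fitted with limma to the recovered libraries over log10 of the concentration, with the lowest tested concentration added to each. It also passed for 0 genes in each line, with 5.46%, 6.44% and 6.57% at an unadjusted p under 0.05 in gill, liver and gut.

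bag3 in the gill line had 118 to 338 reads in the 9 treated libraries (median 246), and 283 and 310 reads in the controls. This was 52.2 to 78.2 CPM in treated libraries and 63.5 and 64.1 in controls, with 5 treated libraries below both controls and 4 above. The highest were those at 4, 200 and 500 ppb and the lowest that at 20 ppb, so the treated libraries lay on both sides of the controls with no order by concentration. The slope was 0.02 ± 0.06 log2 units per unit of the log10 scale of the trend (SE, adjusted p = 0.967), and in the authors' deposited table the F-test had an adjusted p of 0.956.

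In the liver line bag3 had 69 to 195 reads in treated libraries (median 131), and 99 and 182 in controls. Its 29.9 to 37.1 CPM in treated libraries compare with 27.4 and 30.5 in controls. None of the 9 treated libraries lay below both controls, 2 lay between them and 7 lay above. The slope was 0.07 ± 0.04 (adjusted p = 0.837), and the authors' deposited table gives an adjusted p of 0.972 for the F-test.

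hspa1b in the liver line had 2, 0, 2, 2, 0, 1, 2, 4 and 4 reads from 1.6 to 1000 ppb, and 4 and 5 reads in the controls. All 9 treated libraries lay below both controls in CPM, at 0 to 0.831 against 0.837 and 1.11. The 2 libraries at 0, those at 4 and 40 ppb, allow up to 1.31 and 0.773 CPM. In the authors' deposited table the F-test had an unadjusted p of 0.0382 and an adjusted p of 0.442, and the trend was 0.03 ± 0.32 (adjusted p = 0.995). At single concentrations, relative to the median gene, unadjusted p was 0.0325, 0.0108, 0.00573 and 0.0474 at 1.6, 4, 40 and 100 ppb by the moderated test, with adjusted p from 0.403 to 0.8805, so no difference from the controls passed.

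In the gut line hspa1b had 9, 7, 3, 8, 6, 5, 5, 9 and 14 reads from 1.6 to 1000 ppb, and 8 and 9 in the controls. The treated libraries held 0.813 to 1.83 CPM, 7 of 9 of them between the controls at 1.19 and 2.02 and 2 below both. The slope was 0.08 ± 0.12 (adjusted p = 0.930), and the F-test of the authors' deposited table had an adjusted p of 0.977.

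**Figure D5:**
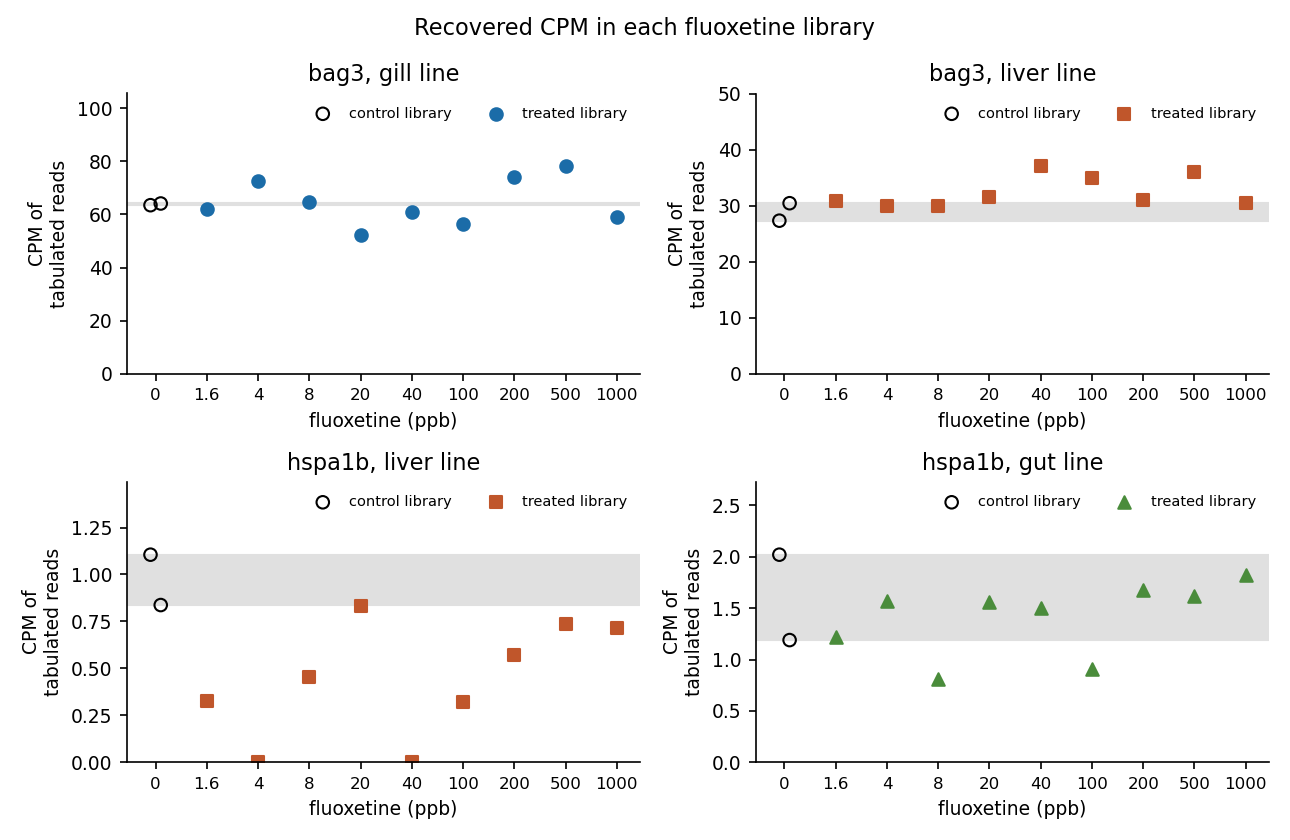
Recovered CPM, relative to tabulated reads, of bag3 (top) and hspa1b (bottom) in each fluoxetine library, by concentration in ppb from the controls at 0 upward. Open circles are the 2 controls, filled symbols the 9 treated libraries, and the grey band spans the controls. hspa1b in liver lies below the band in all 9 treated libraries, at 0 to 4 reads.

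The control level of bag3 differed between the experiments. Its controls in the fluoxetine experiment had 63.5 and 64.1 CPM in gill and 27.4 and 30.5 in liver, against 34.0 and 10.8 in the methylmercury experiment. For hspa1b the control values were 0.837 and 1.11 in liver and 1.19 and 2.02 in gut in the fluoxetine experiment, against 1.45 and 1.19 in the methylmercury experiment. These experiments were tabulated separately, and the difference was not tested. In the authors' deposited table of benchmarks, hspa1b under fluoxetine in liver had a curve but no benchmark concentration that passed their criteria, and 244 genes of that line did.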

How the data were processed

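RNA from 69 libraries was filtered with fastp and quantified with Salmon, per the submitters' processing notes; versions and genome build are not given in the sources used here. The authors deposited 12 tables. Mean log2 expression and log2 fold changes over control were computed by the authors from these quantifications. The deposited p-values were computed by the authors with an F-test over concentrations, with adjusted p, and with a lack-of-fit test of each curve. The benchmark concentrations, curve parameters and F statistics that the authors deposited are scores with no fixed range. Group means, moderated variances and SEs were recovered exactly from these columns. Values were log2 of a count with 0.5 added and a scaling factor; back-transformed fluoxetine counts between 0 and 50 were within 0.05 of a whole number for 70.9% of values. Fluoxetine libraries were recovered singly, methylmercury only as means of pairs.

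No count test was run, since methylmercury counts were known only as means of pairs and recovered fluoxetine counts were not all whole. Methylmercury fold changes relative to the median gene were tested two-sided with the recovered limma-type moderated variance, with Benjamini-Hochberg adjustment over all genes of a table, and differences between lines over the genes of both tables. Fluoxetine trends used limma 3.58.1 in R 4.3.3; all else used Python 3.11.15 and scipy 1.17.1. Scripts were tested on simulated data. An exact binomial interval was used for the ratio of counts, and 3 reads is the limit that a count of 0 allows. Genes named beside the members were up to 4 per list, called in most lines with the largest mean fold change at 250, and 5 per member by each measure of likeness. The members and lists were chosen with earlier results of these data known. Names come from the RefSeq trout annotation. Alternatives were other centring, filters, Holm adjustment, added counts and leaving out libraries.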

Additional observations from a re-analysis of the deposited data

How the results depend on the processing

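Of 267 alternative values for 42 results, 240 kept their direction and their side of the threshold, or moved by less than 1 residual SD where there was no test. Part of the 240 was fixed in advance. The 42 values with a minimum mean log2 expression of 1 could not differ, since no gene was removed. Holm's adjustment could not change a result that was uncalled to begin with. Holm's adjustment ended 8 calls. In the F-tests it gave adjusted p of 1 for hspa1b in gill and for bag3 in liver. At single concentrations it ended the calls of hspa1b in gill at 125 (4.76) and 250 (7.44), in liver at 125 (3.92) and in gut at 125 (4.58), and of bag3 in liver at 125 (2.62) and 250 (5.56). Adding 5 counts, chosen after seeing the data, moved hspa1b to -0.0070 at 2.5, 2.64 at 125 and 4.98 at 250 in gill, to 3.50 and 7.31 at 125 and 250 in liver and to 4.03 and 8.52 in gut, and bag3 in gill at 250 to 6.19. At 125 in place of 250, the uncalled hspa1b differences turned sign, to 0.84 for gill minus liver and -0.18 for gut minus gill. Uncalled bag3 in gill at 2.5 was 0.0366 as deposited. The fluoxetine slope of hspa1b in liver turned to -0.0100 on the rank of the concentration and -0.0364 with 5 counts added. Leaving out 1 concentration at a time, slopes ran from -0.0157 to 0.0557 for bag3 in gill and 0.0484 to 0.105 for bag3 in liver. For hspa1b they ran from -0.0957 to 0.0737 in liver and 0.0248 to 0.127 in gut. Of these 36 fits 0 passed, and at most 1 of all genes of a line passed when a concentration was left out. The cause of these changes was not tested. A minimum mean log2 expression of 1 removed no gene, and 3 was added after seeing the data.

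No paired analysis was possible because the tables give methylmercury values only as means of pairs, and replicates of methylmercury could not be left out for the same reason. Counts of 0 to 14 reads limit hspa1b under fluoxetine and in gill controls.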
